A study of Homo sapiens with 3 samples.

Results

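Binding of HA-TFE3 was examined at the 7 genes that encode the FOS and JUN subunits of the transcription factor AP-1. The members were FOS, FOSB, FOSL1, FOSL2, JUN, JUNB and JUND, and all 7 were found and used. Each gene was given its hg19 span in whole kb with 5 kb added on either side, and every binding summit in that window was counted. The windows held 34 of the 62287 summits of replicate 1, 40 of the 72647 summits of replicate 2, and 29 of the 47396 summits that the 2 replicates share.

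The method, ChIP-seq, sequences the DNA that comes down with a protein precipitated from chromatin. It was applied to HK-2, an established cell line derived from human kidney proximal tubule. The cells express an HA-tagged TFE3 under the control of doxycycline, and an anti-HA matrix pulled the protein down, so the sites are those of the introduced, tagged protein. The series holds 2 replicate HA-TFE3 ChIP samples and 1 input DNA sample, and the input entered no comparison. The labels describe culture for 24 h with or without 0.2 µg/ml doxycycline but do not say which samples received it, and no list from uninduced cells or from a precipitation without the tag was analysed here. The cell line could not be checked against markers, because the files hold positions of binding and no expression. The labels do not say whether the replicates were grown separately, and their spread may be technical.

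AP-1 is a dimer of basic leucine zipper proteins. JUN proteins pair with each other or with FOS proteins, whereas FOS proteins need a JUN partner to bind DNA. The pairs recognise the AP-1 site and related elements, and many of the genes are immediate early genes, which cells switch on within minutes of growth factor, stress or cytokine signals. TFE3 belongs to another family, the MiT/TFE basic helix-loop-helix leucine zipper proteins, known for driving lysosomal and autophagy genes from E-box elements with the core letters CACGTG.

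A summit is a single base that the authors listed as the top of a bound region, with a score of their own on an unstated scale. The score is used only to rank a summit in its own list, as a percentile in which 100 is the highest. Summits of the 2 lists were called paired when they were mutually nearest and no more than 100 bp separated them. Distances to a gene were taken along its strand from the start edge of its span. That edge is given in whole kb, so a distance is good to about 1 kb. The lists hold no read counts, so the depth is unknown.

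Every one of the 7 genes carried at least 1 paired HA-TFE3 summit. FOSL2 had 7, FOSB had 5, FOSL1, JUN, JUNB and JUND had 4 each, and FOS had 1. As background, chromosomes 1 to 22 and X were divided into consecutive windows of the same lengths. At least 1 paired summit occurred in 14.7% of windows of 13 kb, the length for JUNB and JUND, and in 15.5% of windows of 14 kb, the length for FOS and JUN. It occurred in 18.9% of windows of 18 kb (FOSB), 20.4% of windows of 20 kb (FOSL1) and 30.2% of windows of 36 kb (FOSL2). FOS with its lone paired summit was thus like 15.5% of windows of its length. The other 6 genes held more than most: as many as theirs were found in 0.236% of windows for FOSB, 0.883% for FOSL1, 0.314% for FOSL2, 0.392% for JUN and 0.323% for JUNB and for JUND.

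**Figure D1:**
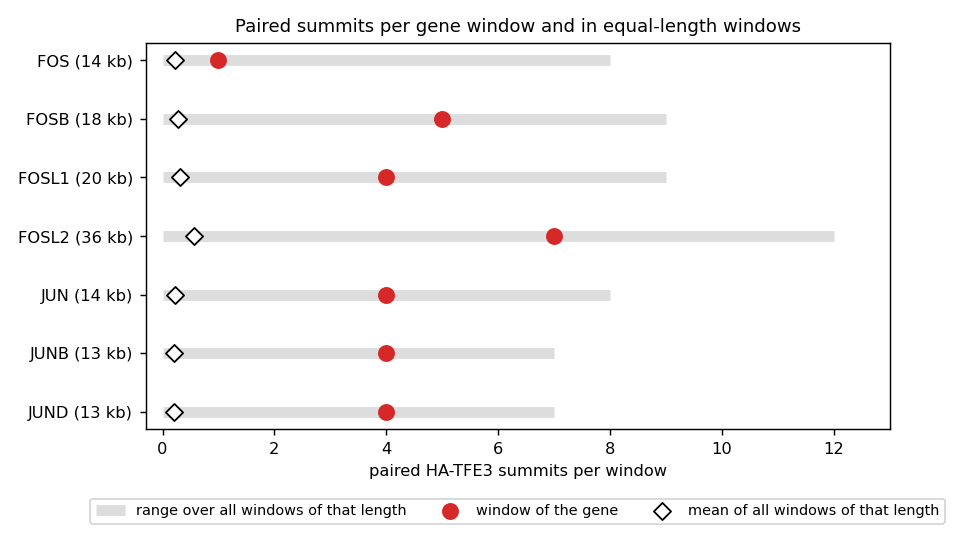
Paired HA-TFE3 summits per window (horizontal axis) for each AP-1 gene (rows, with the length of its window). Red circles are the windows of the genes, open diamonds the mean of all windows of that length, and grey bars their range. Each gene lies above the mean of its row, FOS with 1 against 0.219 and FOSL2 with 7 against 0.562.

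Chromosome 19, which carries FOSB, JUNB and JUND, is dense in summits. Against windows of chromosome 19 alone, 1.34% held as many paired summits as FOSB and 1.45% as many as JUNB or JUND. The 7 windows together cover 128 kb and had 226.6 paired summits per Mb (95% exact Poisson interval 151.7 to 325.4), against 15.6 per Mb over all chromosomes used. The density was 14.5-fold that of all chromosomes (9.72 to 20.8). At the densities of their own chromosomes the windows would hold 3.09 paired summits, and the 29 observed are 9.38-fold that number (6.28 to 13.5). These intervals cover counting error only. The fold over all chromosomes was 28.3 among the 10000 top-scoring summits of each list and 8.72 with a margin of 20 kb around the spans. The windows hold gene starts by choice and most genome windows do not. A background of other gene windows was not analysed here, so the excess is not shown to be particular to AP-1 genes.

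The summits with the highest scores lay nearer to the start edge than to the end of the span at 6 of the 7 genes. JUNB was the exception, with its highest pair near the end of a span of 3 kb. For each of the 7 genes, the paired summit with the highest mean percentile was between 0.12 and 2.46 kb from the start edge. The window of FOSL2 reaches up to 31 kb from that edge, but those of JUNB and JUND are only 13 kb long in all. Its percentile was at least 89.9 in either replicate. Within 2.5 kb of a start edge, a distance chosen after the values were seen, lay 16 of the 29 paired summits on 27.3% of the window length, or 4.57 per 10 kb. The rest of the windows had 13, or 1.40 per 10 kb. The median of the mean percentiles was 83.9 near the start edges and 46.4 in the rest. Of the 29, 7 lay upstream of the start edge, 14 within the span and 8 downstream of it. Within 1 kb of a start edge lay 6 and within 2 kb lay 12. The counts by side follow edges given in whole kb. For the 6 pairs within 1 kb they do not show on which side of the true gene start a pair lies. The same holds for the highest pair of FOSL1, at 1.01 kb. Pairs of JUN, JUNB and JUND close to a span end are likewise not firmly placed within or beyond the gene.

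**Figure D2:**
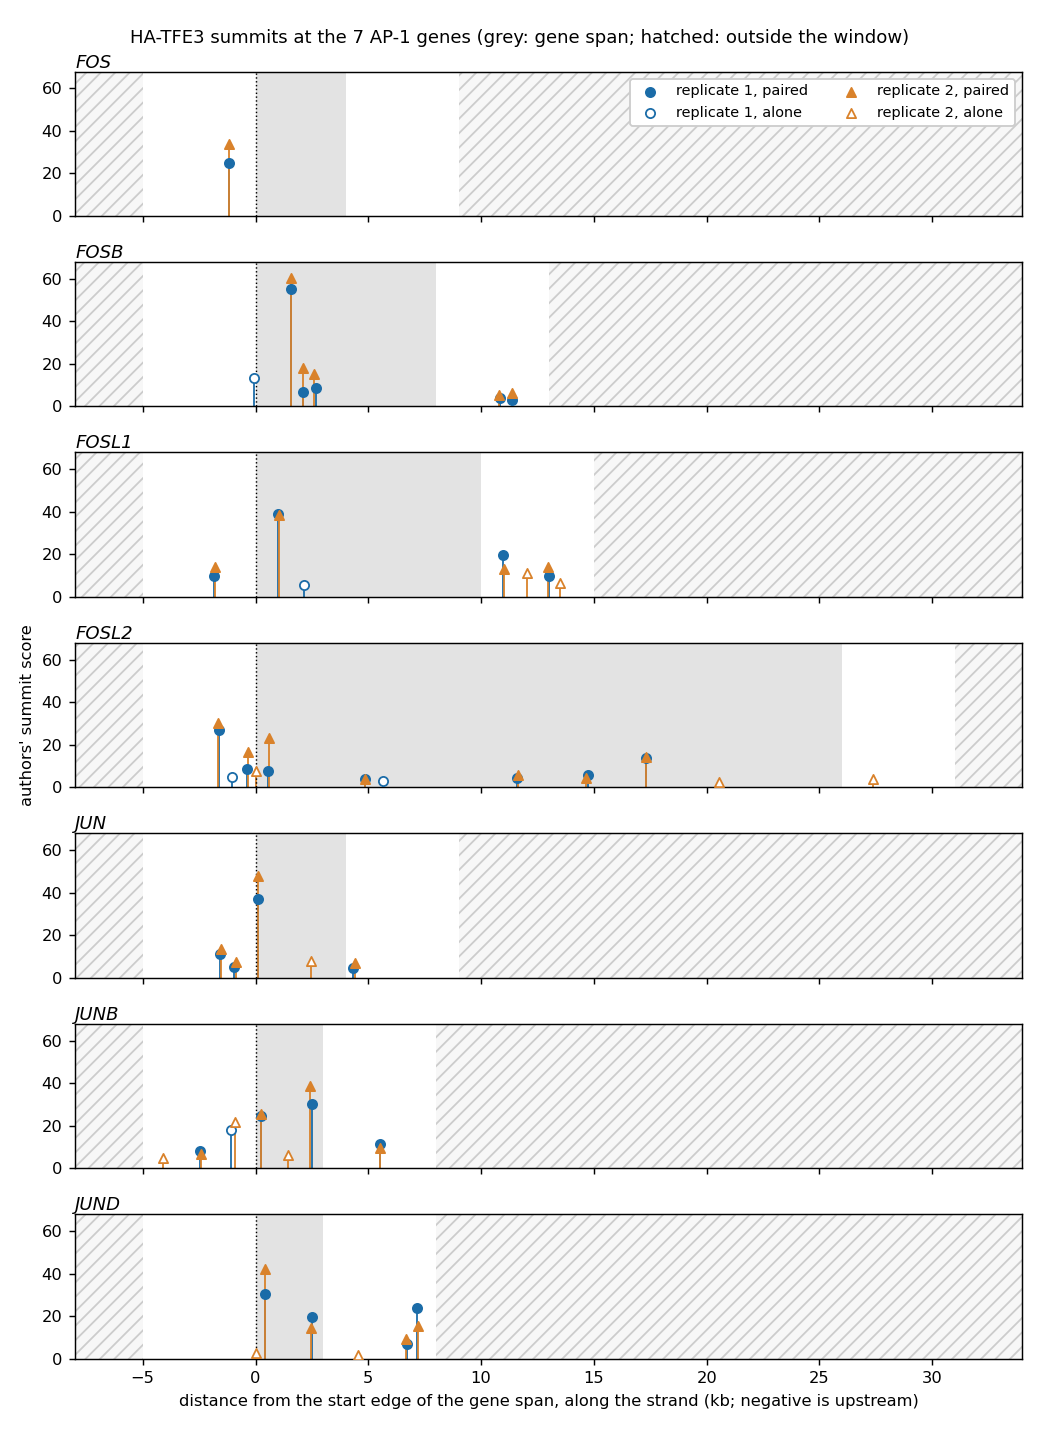
HA-TFE3 summits at each AP-1 gene by distance from the start edge along the strand in kb (horizontal axis) and by the authors' score (vertical axis). Blue circles are replicate 1 and orange triangles replicate 2, filled where paired and open where alone. Grey marks the gene span and hatching lies outside the window. The tallest pair of each gene stands within 2.5 kb of the dotted start edge, highest at FOSB with 55.5 and 60.2.

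FOS encodes the founding FOS protein, a subunit that forms heterodimers with JUN proteins. It lies in 14q24.3 and had 1 summit in its window in each replicate. The summit was at base 75743807 of chromosome 14 in replicate 1 with a score of 24.8 and at base 75743817 in replicate 2 with a score of 33.7, at percentiles 89.9 and 94.8. It stood 1.19 kb upstream of the start edge, and no summit of either list lay within the span. FOS was the gene with the fewest summits and the sole one with none in its span.

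Outside the window, FOS was flanked by summits of like rank on both sides. The summits named here were chosen after their values were seen. Downstream, at 15.9 kb from the start edge, a paired summit scored 28.0 and 37.1 (percentiles 92.6 and 96.1). Upstream, at 19.1 and 19.2 kb, the replicates had summits scoring 26.4 and 35.4 (percentiles 91.4 and 95.5). These upstream summits lay 128 bp apart, so they did not count as paired. The 3 positions around FOS thus had scores within a narrow range in each replicate, and nothing else was listed within 20 kb of the span.

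FOSB encodes a FOS protein whose long and short forms arise by splicing. Its window in 19q13.32 held the AP-1 summit with the highest score in both replicates. This pair, at bases 45972567 and 45972576 of chromosome 19, scored 55.5 in replicate 1 and 60.2 in replicate 2 and ranked 284 and 306 in the 2 lists. It lay 1.57 kb inside the start edge. Among windows of 18 kb with a paired summit, 0.601% had one of as high a mean percentile. The same share, for the highest pair of each other gene and windows of its length, was 15.1% for FOSL2 and 11.99% for FOS. It was 7.11% for JUNB, 6.39% for JUND, 4.81% for FOSL1 and 3.38% for JUN, so FOSB had the lowest share. Further pairs at FOSB followed at 2.09 kb, with scores of 6.67 and 17.9, and at 2.65 kb, with 8.55 and 15.1. Both ranked higher in replicate 2, where their percentiles were 79.3 and 73.7, than in replicate 1, where they were 35.3 and 50.1. Beyond the span, pairs at 10.8 and 11.4 kb had low scores, between 2.80 and 6.29. The summit nearest to the start edge, 0.074 kb upstream of it with a score of 13.5, was found in replicate 1 alone.

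FOSL1 encodes FRA-1, a FOS protein without the transactivation domain of FOS that is known to rise in migrating and invasive epithelial cells. Its window in 11q13.1 had 5 summits in replicate 1 and 6 in replicate 2. The highest pair, at bases 65668006 and 65667980 of chromosome 11, lay 1.01 kb inside the start edge and scored 39.2 and 38.6, at percentiles 97.5 and 96.6. An upstream pair at 1.81 kb scored 10.03 and 14.1. The remaining pairs lay past the end of the span at 10.98 and 13.01 kb, with scores of 19.7 and 12.9 at the nearer and 9.96 and 14.1 at the farther. CCDC85B is the neighbour of FOSL1 on that side in the order of RefSeq genes on GRCh38, and to which gene these summits belong was not tested.

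FOSL2 encodes FRA-2, the sister protein of FRA-1. Its span of 26 kb in 2p23.2 is the longest of the 7, and summits were spread over much of it. The highest pair, at bases 28613373 and 28613348 of chromosome 2, was 1.64 kb upstream and scored 26.8 and 30.1. The pairs nearest to the start edge were 0.358 kb upstream, with 8.83 and 16.6, and 0.559 kb inside, with 7.67 and 23.1. The last of these differed most in rank of the 3, with percentiles of 44.1 in replicate 1 and 87.0 in replicate 2. The other 4 pairs lay in the body of the gene between 4.84 and 17.3 kb, and the one at 17.3 kb stood out with 14.01 and 14.4. The remaining 3 scored between 3.77 and 5.92. The lncRNA gene FOSL2-AS1 overlaps FOSL2 in the RefSeq annotation of GRCh38.

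JUN encodes the founding JUN protein, which binds DNA as a homodimer or with FOS proteins and is known to activate its own promoter. Its highest pair, at bases 59249871 and 59249890 of chromosome 1 in 1p32.1, lay 0.12 kb inside the start edge. It scored 37.0 in replicate 1 and 47.8 in replicate 2, at percentiles 96.9 and 98.5. The other pairs were weaker in score. Those upstream, at 0.903 and 1.56 kb, scored 5.23 and 7.32 at the nearer and 11.1 and 13.7 at the farther. The pair past the end of the span, at 4.36 kb, scored 4.58 and 6.76. Of the 4 pairs, 3 lay between 50 and 100 bp apart, so with a limit of 50 bp JUN kept 1.

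JUNB encodes a JUN protein that in many settings restrains JUN, and its span in 19p13.2 is 3 kb long. The window had 5 summits in replicate 1 and 7 in replicate 2, and it carried summits with high scores at both ends of the span. At the start edge, 0.236 kb inside, the pair at bases 12902242 and 12902229 of chromosome 19 scored 24.8 and 25.6, at percentiles 89.9 and 89.6. At 2.46 kb, near the end of the span, the pair at bases 12904497 and 12904425 scored 30.2 and 38.8, at percentiles 94.0 and 96.6. The second pair was thus higher in rank in both replicates. Upstream, replicate 1 had a summit of 18.3 at 1.08 kb and replicate 2 one of 21.8 at 0.91 kb. These lay 169 bp apart and counted as alone, the highest percentiles (81.2 and 85.2) among the AP-1 summits without a partner. Farther pairs were 2.44 kb upstream (8.24 and 6.86) and 5.51 kb downstream of the start edge (11.2 and 9.39). HOOK2 overlaps JUNB and PRDX2 follows it in the order of RefSeq genes on GRCh38.

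JUND encodes the JUN protein that is known to be present in most cell types without stimulation. Its highest pair, at bases 18392590 and 18392568 of chromosome 19 in 19p13.11, lay 0.421 kb inside the start edge and scored 30.3 and 42.2, at percentiles 94.1 and 97.5. A further pair at 2.49 kb, near the end of the span, scored 19.5 and 14.6. Past the end of the gene, the pair at 7.16 kb scored 24.0 and 15.4 and that at 6.68 kb scored 6.92 and 9.52. The 2 JUND pairs next in rank, at 2.49 and 7.16 kb, were higher in percentile in replicate 1 (83.5 and 89.1) than in replicate 2 (72.6 and 74.2). Replicate 2 alone listed summits at 0.037 and 4.56 kb, with scores of 2.58 and 1.80 among the lowest of its list.

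The promoters of FOSL2, JUN, JUNB and JUND are printed because each of these genes had a paired summit less than 0.5 kb from its start edge as the span gives it. Given in whole kb, the edges do not show whether another gene, such as FOSL1 or FOS, has one as near to its true start. The sequences are the 250 bases before the RefSeq start on GRCh38.p14, 5′ to 3′ on the strand of the gene. The summits are on hg19 and were not placed on them. FOSL2 lies at chr2:28392608-28392857 (plus strand), JUN at chr1:58784048-58784297 (minus strand), JUNB at chr19:12791236-12791485 (plus strand) and JUND at chr19:18281623-18281872 (minus strand). Capitals mark TGACATCA in JUN, a variant AP-1 site known there as the place where JUN binds its own promoter, and TGACGTCA in JUND, the cAMP response element.
FOSL2: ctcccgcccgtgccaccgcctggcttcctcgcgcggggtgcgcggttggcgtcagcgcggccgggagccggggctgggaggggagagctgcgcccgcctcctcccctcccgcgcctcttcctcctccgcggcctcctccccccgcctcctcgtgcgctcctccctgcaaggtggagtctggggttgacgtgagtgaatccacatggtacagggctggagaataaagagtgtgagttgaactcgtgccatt
JUN: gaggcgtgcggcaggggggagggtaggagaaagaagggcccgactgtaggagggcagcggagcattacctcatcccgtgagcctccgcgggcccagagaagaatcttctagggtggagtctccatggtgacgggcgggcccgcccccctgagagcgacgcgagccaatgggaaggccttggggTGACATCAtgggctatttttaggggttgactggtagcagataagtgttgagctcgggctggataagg
JUNB: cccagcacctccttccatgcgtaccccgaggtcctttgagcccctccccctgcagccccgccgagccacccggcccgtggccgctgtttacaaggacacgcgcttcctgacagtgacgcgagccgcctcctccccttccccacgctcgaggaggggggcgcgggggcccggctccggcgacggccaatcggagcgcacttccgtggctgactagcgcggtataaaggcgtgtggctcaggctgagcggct
JUND: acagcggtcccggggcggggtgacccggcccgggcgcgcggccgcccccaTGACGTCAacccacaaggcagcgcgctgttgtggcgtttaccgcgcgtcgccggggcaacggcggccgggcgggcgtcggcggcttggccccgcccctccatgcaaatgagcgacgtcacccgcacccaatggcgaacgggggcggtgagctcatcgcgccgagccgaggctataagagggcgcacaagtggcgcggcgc

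RefSeq promoters of 300 bases (250 before and 50 after the start) were matched for 6 of the 7 genes, all but FOSL1. They were searched on both strands, with exact letters. None of the 6 held the E-box letters CACGTG, which 7.26% of all 35116 promoters hold, so neither could any hold TCACGTGA, found in 0.980%, which contains them. None held the M-box form TCATGTGA, found in 0.9995%. The AP-1 letters TGANTCA, where N is any base, were in FOSL2 alone, 5 bases after the start, and are held by 7.71% of promoters. The cAMP response element was in JUND alone, 200 bases before the start, and is held by 1.85%. TGACATCA, searched after the sequences were seen, was in JUN alone and is held by 2.61%. A match is a run of letters and not a bound site, and a missing match speaks only of these windows. The 6 promoters had GC contents between 62% (JUN) and 77% (JUND), against a median of 58.7% over all promoters.

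The FOS-family and JUN-family genes were set side by side. The FOS genes had 17 paired summits on 88 kb, or 1.93 per 10 kb, and the JUN genes had 12 on 40 kb, or 3.00 per 10 kb. The median of the mean percentiles was 65.0 for the FOS genes and 71.9 for the JUN genes. By replicate, the JUN genes had the higher median in replicate 1 only, with 72.9 against 52.5. In replicate 2 it was 71.4 for the JUN genes and 72.2 for the FOS genes. The spans of the JUN genes are at most 4 kb and that of FOSL2 is 26 kb, so a larger part of the JUN windows lies near a start. JUNB and JUND also lie on chromosome 19, as does FOSB alone among the FOS genes. Windows of 13 kb held a mean of 0.521 pairs on chromosome 19 against 0.203 over all chromosomes used. With 4 and 3 genes in 2 samples, neither the differences between the families nor the part of span length or chromosome in them was tested.

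Summits without a partner were few and mostly low in score. Replicate 1 had 5 and replicate 2 had 11 in the 7 windows. Their median percentiles were 26.6 and 33.7, against 58.7 and 72.2 for the paired summits of the same windows. Paired summits made up 85.3% of the AP-1 summits of replicate 1 and 72.5% of those of replicate 2, against 76.1% and 65.2% over all chromosomes used. Paired AP-1 summits lay 2 to 82 bp apart, with a median of 29 bp against 26 bp over all pairs.

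The ranks of the paired AP-1 summits went together in the 2 replicates. Spearman's rank correlation of the scores was 0.853 across the 29 pairs, against 0.729 across all pairs. These are correlations across summits, which come from the same 2 libraries, and no p-value is attached to them. The percentile was higher in replicate 2 for 21 of the 29, or 72.4%, against 57.2% of all pairs. The median absolute difference in percentile was 12.99 points at AP-1 genes and 11.7 points over all pairs. A mean percentile of 90 or more was reached by 7 pairs, or 24.1%, against 11.8% of all pairs. These 7 were the highest pair of each gene. The median of the mean percentiles was 65.2 at AP-1 genes and 59.5 over all pairs. By replicate, the median was higher at AP-1 genes in replicate 2 only, with 72.2 against 64.3 over all pairs. In replicate 1 it was 58.7 against 59.1.

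**Figure D3:**
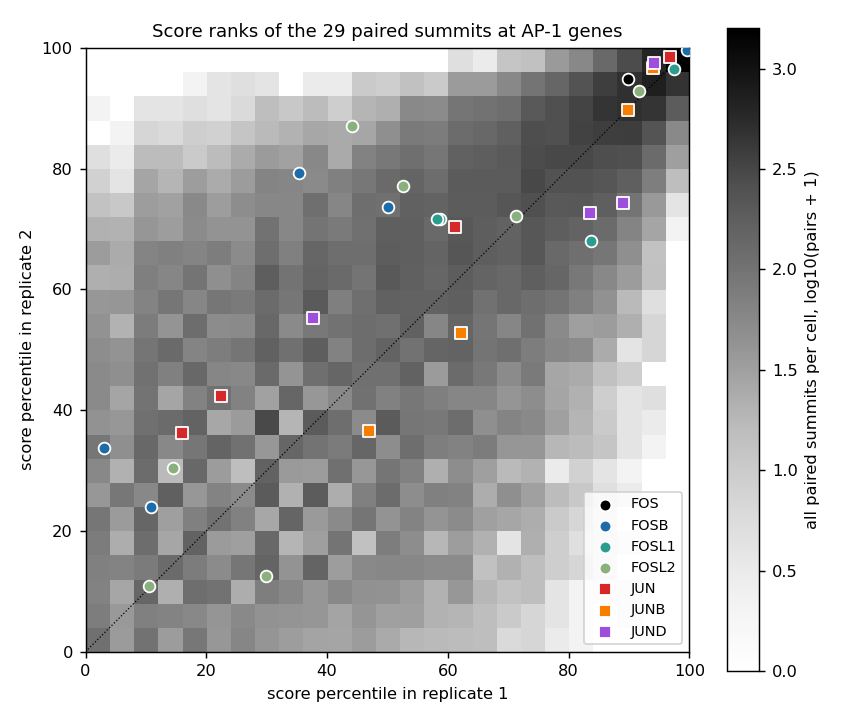
Score percentile in replicate 1 (horizontal axis) and in replicate 2 (vertical axis) of the 29 paired summits at AP-1 genes, coloured by gene, with circles for FOS-family and squares for JUN-family genes. The grey cells show all pairs on a log10 scale. The highest pair of each gene gathers at the upper right corner, and 21 of the 29 (72.4%) lie above the dotted line of equal rank, as do 57.2% of all pairs.

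Neighbouring paired summits within a window lay between 485 bp (JUND) and 9975 bp (FOSL1) apart. These distances are bounded by the windows, so they were not compared with the genome.

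Summed over the genes, their surroundings were also denser than the genome. Within the spans there were 2.41 paired summits per 10 kb (95% exact Poisson interval 1.32 to 4.05) and in the 5 kb on either side 2.14 (1.20 to 3.53). From 5 to 20 kb outside the spans the density was 0.810 (0.472 to 1.30), from 20 to 50 kb it was 0.929 (0.660 to 1.27) and from 50 to 100 kb it was 0.571 (0.408 to 0.778). All of these lay above the 0.156 per 10 kb of all chromosomes used. The density did not fall evenly, since it was no lower at 20 to 50 kb than at 5 to 20 kb. FOSL2 and JUN had no paired summit from 5 to 20 kb, and FOS had none from 50 to 100 kb. At that farthest distance FOSB, JUNB and JUND, all on chromosome 19, had 0.8, 1.1 and 0.9 per 10 kb. JUN had 0.6, FOSL2 0.4 and FOSL1 0.2. Chromosome 19 is itself dense, with a mean of 0.722 pairs per window of 18 kb against 0.281 over all chromosomes. The summed densities were not set against those of the genes' own chromosomes. The window held the highest paired summit within 100 kb of the span for 2 genes, FOSL1 and JUN. At the other 5 a pair farther out ranked higher, as at FOS, whose window reached a mean percentile of 92.3 against 94.3 outside it, and at FOSB, with 99.56 in the window against 99.6 outside. The stretch outside is much longer than the window, so it has more room for a higher pair. At JUNB the window of 13 kb had 4 pairs, or 3.08 per 10 kb. The 100 kb lying 50 to 100 kb outside its span had 11, or 1.1 per 10 kb. Other genes lie within these distances, and the genes to which the outer summits belong were not analysed here.

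**Figure D4:**
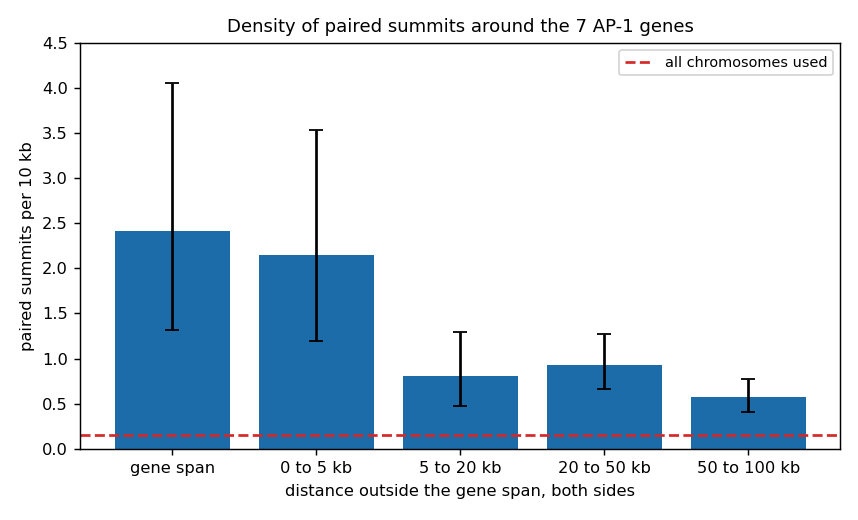
Paired HA-TFE3 summits per 10 kb (vertical axis), summed over the 7 AP-1 genes, within the gene spans and at increasing distance outside them on both sides (horizontal axis). Error bars are 95% exact Poisson intervals and the dashed line is the density over all chromosomes used. Density was 2.41 in the spans and 0.571 at 50 to 100 kb, against 0.156 over all chromosomes.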

How the data were processed

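HA-TFE3 ChIP-seq summits of 2 replicate samples were used, grouped by sample title, and the input DNA sample was not used. The authors deposited for each a list of summits of 1 bp with a peak name and a score. Per the submitters' processing notes, the build is hg19. Neither the aligner nor the peak caller, its settings or the meaning of the score is given in the sources used here. A caller's threshold and the depth, which is unknown, set how many summits are listed.

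Positions were made 1-based. Summits outside chromosomes 1 to 22 and X were left out (35 in replicate 1 and 45 in replicate 2). Summits were paired as mutual nearest within 100 bp over the whole lists, and the gene windows then read from them. Chromosome lengths came from the hg19 bands of circlize 0.4.16 (R 4.3.3). Promoters and gene order are RefSeq's on GRCh38.p14. Python 3.11.15, NumPy 2.4.6, pandas 2.3.3, SciPy 1.17.1 and matplotlib 3.10.9 were used. On simulated lists of 28000 summits the pairing recovered 99.9% of 20000 shared ones. Those summits were placed at random, and the shared ones were displaced by less than the limit of 100 bp. High recovery was thus built in. It checks the code only, and does not show how pairing does on longer, clustered lists such as these.

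The members and lists were chosen with earlier results of these data known. The rule for named items takes all 7 genes, with the highest pair of each and the pair nearest to its start edge; the other pairs were added. A list of AP-1 partner and regulator genes was not run, since no hg19 annotation was used here. No test was made: 2 samples of the same kind allow none.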

Additional observations from a re-analysis of the deposited data

How the results depend on the processing

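At least 1 summit was found at 7 of 7 genes under all 11 alternatives: other pairing limits, scores or margins, 1 kb added at the span end, and each replicate alone. It was a paired summit except with each replicate alone, where all summits of the list were counted and none can be paired. The number of paired summits, 29, was 17 when each list was limited to scores above its median, 8 when limited to its 10000 highest scores and 46 with a margin of 20 kb. Leaving out a replicate gave 34 to 40 summits. The density relative to all chromosomes, 14.5-fold, was 12.6 with a pairing limit of 50 bp, 14.2 with 200 bp and 13.96 with 500 bp. It was 16.98 above the median score and 28.3 among the 10000 highest. With margins of 2, 10 and 20 kb it was 16.4, 10.4 and 8.72, with 1 kb added at the span end 13.8, and without either replicate 12.9 to 13.1. The median percentile, 65.2, was 81.6 above the median score and 95.6 among the 10000 highest, both by construction, and 58.5 to 65.4 without either replicate. These values were held against the SD between the libraries (0.0796-fold and 4.91 points), a narrow limit for the density. The density moved by more than its limit under all 11 alternatives. The median percentile did so above the median score, among the 10000 highest and without replicate 2. Of 77 counts per gene, 59 stayed within 1.5 times and 18 did not; JUN had 1 with a limit of 50 bp, and JUNB, with 4 pairs, had 7 summits without replicate 1. The shares of windows holding as many pairs left their 95% binomial intervals in 14 of 14 cases. Among windows with a summit of either list they were 66.8% for FOS, 0.856% for FOSB, 2.99% for FOSL1, 0.759% for FOSL2, 1.69% for JUN and 1.46% for JUNB and JUND. On the gene's own chromosome they were 14.7% for FOS, 1.34% for FOSB, 0.326% for FOSL1, 0.222% for FOSL2, 0.719% for JUN and 1.45% for JUNB and JUND. No paired analysis was possible because the replicate numbers join no 2 groups. The precision is limited by the 2 lists and their unknown depth.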
